A study of Homo sapiens with 8 samples.

Results

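The 10 genes described here are 3 actin isoform genes (ACTB, ACTG1 and ACTA2), 6 genes of actin-binding or contractile proteins (TAGLN, CNN1, CNN2, TPM1, TPM2 and MYL9) and SRF, the transcription factor that controls many of them. They were taken by name, each from 1 row of a table of 58735 genes, and 9 of the 10 passed a filter of at least 1 FPKM on average over all samples, as 13296 genes did. All levels below are in FPKM, fragments per kilobase of gene length scaled to library size. The cells were LN229, a human line established from a glioblastoma. Those of 4 samples, called the combination, had been kept for 48 h in 7.5 nM bortezomib, which inhibits the proteasome, plus 15 nM panobinostat, which inhibits histone deacetylases. The 4 control samples are named for DMSO, the solvent, in their titles and in the treatment protocol, while another label calls them untreated. All samples are of this 1 cell line. The labels name no separate cultures, so the spread behind each p-value may be technical. The comparison addresses how transcript levels in these cells differ under the drug pair.

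Actin is a globular protein that assembles into filaments. Nearly all cells make the cytoplasmic isoforms beta-actin (ACTB) and gamma-actin (ACTG1), whereas alpha-smooth muscle actin (ACTA2) belongs to smooth muscle, myofibroblasts and other contractile cells. Monomeric actin also holds the cofactors MRTFA and MRTFB in the cytoplasm, and when actin assembles these cofactors are released, enter the nucleus and act with SRF. SRF binds a short DNA element, the CArG box, and with the MRTFs it drives genes of the cytoskeleton, among them actins, tropomyosins, calponins and transgelin. With a different set of cofactors, the ternary complex factors ELK1, ELK3 and ELK4, it drives immediate early genes such as FOS and EGR1.

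CArG boxes were looked for in promoter windows from 250 bases before to 50 bases after the transcription start in RefSeq (GRCh38.p14). Windows were found for 7 of the 10 genes, namely SRF, TPM1, TPM2, ACTA2, ACTG1, CNN1 and CNN2, and not for ACTB, TAGLN and MYL9. The only windows of TPM1 and ACTG1 lie inside the gene spans given below, so starts at the outer ends of these genes were not searched. The box was searched in its strict form, CC, then only A or T, then GG, 10 bases in all. This pattern reads the same on both strands. Variant forms were not searched, so a window without a match may still hold a variant box. The strict form was in 454 of all 35116 windows (1.29%), and in the windows of 3 of the 7 genes, SRF, ACTG1 and CNN2. The box of ACTG1 began 94 bases before the start, that of CNN2 89 bases before it, and SRF had a pair, beginning 30 and 10 bases before the start, which do not overlap each other. Another window of SRF held no box. At least 2 boxes were in 11 windows of all (0.0313%). All 3 genes with a box were higher after the combination, but so was CNN1, which had none in its window, and so were 36.9% of all genes tested. The share called higher among all genes with a box was not taken, so these 3 genes do not tie the box to a rise. The last 120 bases before the start are shown for these 4 genes, with CArG boxes in capitals, because they are the 4 of the 10 that rose. They lie at chr17:81512800-81512919 on the minus strand (ACTG1), chr19:1026488-1026607 on the plus strand (CNN2), chr6:43171149-43171268 on the plus strand (SRF) and chr19:11538731-11538850 on the plus strand (CNN1). A match is a description of the letters and says nothing of binding in these cells.
ACTG1: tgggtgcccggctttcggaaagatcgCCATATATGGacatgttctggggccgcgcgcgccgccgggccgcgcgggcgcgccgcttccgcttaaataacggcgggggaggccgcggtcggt
CNN2: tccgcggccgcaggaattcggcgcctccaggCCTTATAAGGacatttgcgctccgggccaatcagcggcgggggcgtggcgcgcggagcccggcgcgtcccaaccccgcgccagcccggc
SRF: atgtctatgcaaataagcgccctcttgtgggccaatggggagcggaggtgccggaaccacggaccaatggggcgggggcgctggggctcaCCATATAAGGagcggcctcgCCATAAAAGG
CNN1: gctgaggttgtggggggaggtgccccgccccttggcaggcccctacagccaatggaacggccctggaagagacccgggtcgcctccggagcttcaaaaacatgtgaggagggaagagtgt

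Library totals ran from 15189251 to 17324292 reads on genes. Reads of the mitochondrial genome made up 11.7% to 15.1% of them after the combination and 4.31% to 6.69% in DMSO, and nuclear genes shared the rest. Genes with at least 1 read numbered 27742 to 29035 in the combination libraries and 25046 to 25719 in DMSO. Pearson correlations of log2 values were at least 0.986 within a group and at most 0.823 between groups. Of 7 glial and glioblastoma markers, 6 were tested. VIM, NES, SOX2, S100B and CD44 stood above 50 FPKM in DMSO, while GFAP, the classical astrocyte marker, was near absent (0.220 ± 0.00415 FPKM, SD, n = 4). Their summed level fell from 852 to 880 FPKM per sample in DMSO to 247 to 261 FPKM after the combination, and 4 were lower (S100B, SOX2, NES and VIM), OLIG2 higher and CD44 not called. Over all genes tested 41.0% were lower and 36.9% higher.

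Transcripts of the cytoplasmic actins went in opposite directions. ACTB stood 1.48 times as high in DMSO as after the combination, while ACTG1 rose 1.83-fold, so that the order of the pair turned over. Among the actin-binding genes the tropomyosins fell, TPM1 2.80-fold and TPM2 2.05-fold, the smooth muscle calponin CNN1 rose from near absence, and its relative CNN2 rose moderately, as did SRF itself. The smooth muscle genes ACTA2 and TAGLN were low throughout. Both were called lower after the combination, but these calls were lost without single samples, and the ACTA2 groups overlapped. MYL9 was not detectable in most libraries. Of the 9 genes tested, 4 were higher and 5 lower in limma on log2(FPKM + 1), at an adjusted p under 0.05 over all genes. CNN1, 1 of the 4 higher, passed the filter only through the combination samples. The background is high, since 77.8% of all tested genes passed (36.9% higher and 41.0% lower), so the number of these genes called is not a result about them. The 2 groups of 4 did not overlap for 8 of the 9, against 72.7% of all genes tested. The median log2 fold change of the 9 was -0.28, and that of all tested genes -0.026. In bulk RNA, fewer cells that express a gene and less RNA per cell cannot be told apart.

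**Figure D1:**
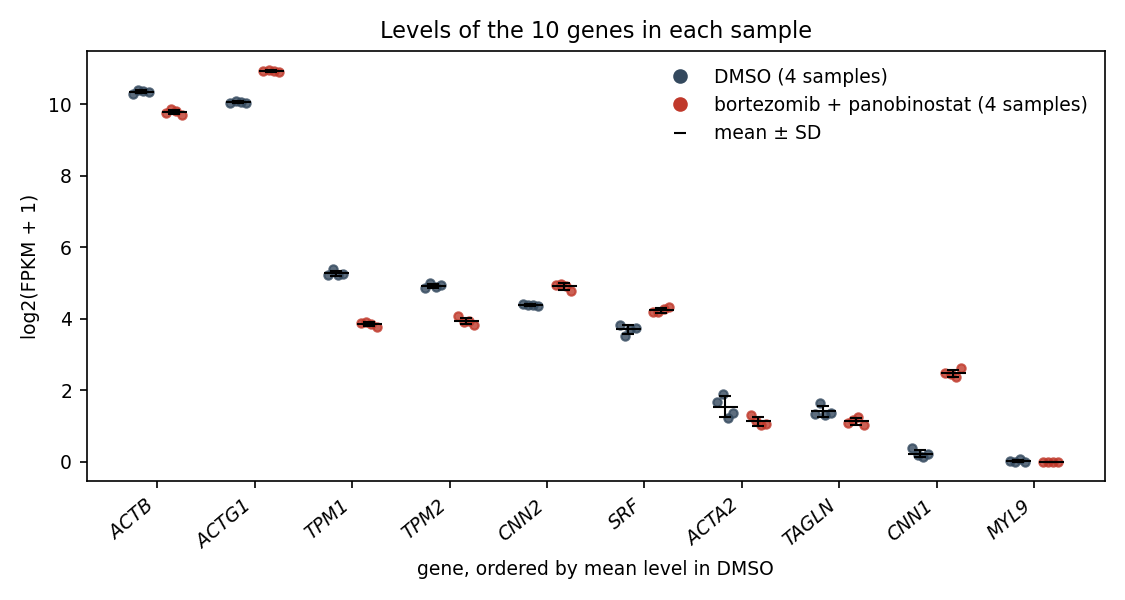
Levels of the 10 genes in each sample, as log2(FPKM + 1), with DMSO in dark blue and the combination in red. Horizontal marks and bars are the mean ± SD of 4 samples. ACTB and ACTG1 change places, CNN1 rises from close to 0, TPM1 and TPM2 drop, and the samples of ACTA2 overlap.

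SRF encodes the DNA-binding factor of the circuit (ENSG00000112658, chromosome 6, 43171299 to 43181507, plus strand, GRCh38 as are all gene coordinates here). Its level in the combination samples was 17.1, 17.3, 18.5 and 18.9 FPKM. In DMSO it was 13.3, 10.4, 12 and 12.4 FPKM. Every combination sample lay above every DMSO sample, with means of 18 ± 0.902 and 12 ± 1.19 FPKM (SD, n = 4 each). The log2 fold change was 0.54 ± 0.0670 (SE, adjusted p = 4.86e-05 in limma, Benjamini-Hochberg over all genes). Each value rested on 699 to 1275 reads, and no exon of SRF lies under an exon of another gene.

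Beta-actin, the main actin of moving cell edges, is encoded by ACTB (ENSG00000075624, chromosome 7, 5527147 to 5563784, minus strand). It stood at 870.2, 929, 904 and 840.3 FPKM after the combination and at 1263, 1354, 1323 and 1292 FPKM in DMSO. The highest treated sample was far below the lowest control. Means were 886 ± 38.8 and 1308 ± 39.2 FPKM, and the log2 fold change -0.56 (95% interval -0.67 to -0.46, adjusted p = 2.72e-06).

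ACTG1 (ENSG00000184009, chromosome 17, 81509971 to 81523847, minus strand) encodes gamma-actin, which differs from beta-actin in a few residues near the amino end. Its level was 1952, 1986, 1968 and 1939 FPKM after the combination and 1044, 1104, 1075 and 1060.2 FPKM in DMSO. No treated sample came near the controls, and the spread within each group was small against the gap. The means of 1961 ± 20.5 and 1071 ± 25.3 FPKM differed by 0.87 on the log2 scale (95% interval 0.78 to 0.96, adjusted p = 4.04e-08). Under 1 scaling the call was lost. With quantile normalization, which gives every sample the same set of values, ACTG1 stood at -0.019 (adjusted p = 0.703 in limma) and ACTB at -1.27. The reason for this difference was not tested. With the other 5 scalings ACTG1 lay between 0.80 and 0.97 and ACTB between -0.63 and -0.47.

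A ratio taken within a sample does not depend on the scaling of libraries. There were 2.24, 2.14, 2.18 and 2.31 ACTG1 per ACTB, in FPKM, after the combination, and 0.827, 0.815, 0.813 and 0.820 in DMSO. The ratio was therefore above 1 in every treated sample and below 1 in every control. The mean rose from 0.819 ± 0.00625 to 2.22 ± 0.0746, which is 2.71 times as high (a difference of 1.44 on the log2 scale). A two-sided exact permutation test gave p = 0.0286, the lowest value open to 4 against 4 samples, and 0.0286 again after Benjamini-Hochberg adjustment over the 3 ratios and shares tested. As a share of both, ACTB went from 55.0% ± 0.189 to 31.1% ± 0.718. The sum of both genes was 2847 ± 59.2 FPKM after the combination and 2379 ± 64.2 FPKM in DMSO, or 0.886% ± 0.0191 and 0.809% ± 0.0234 of all library reads, so the pair took a somewhat larger part of the library while its make-up changed.

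**Figure D2:**
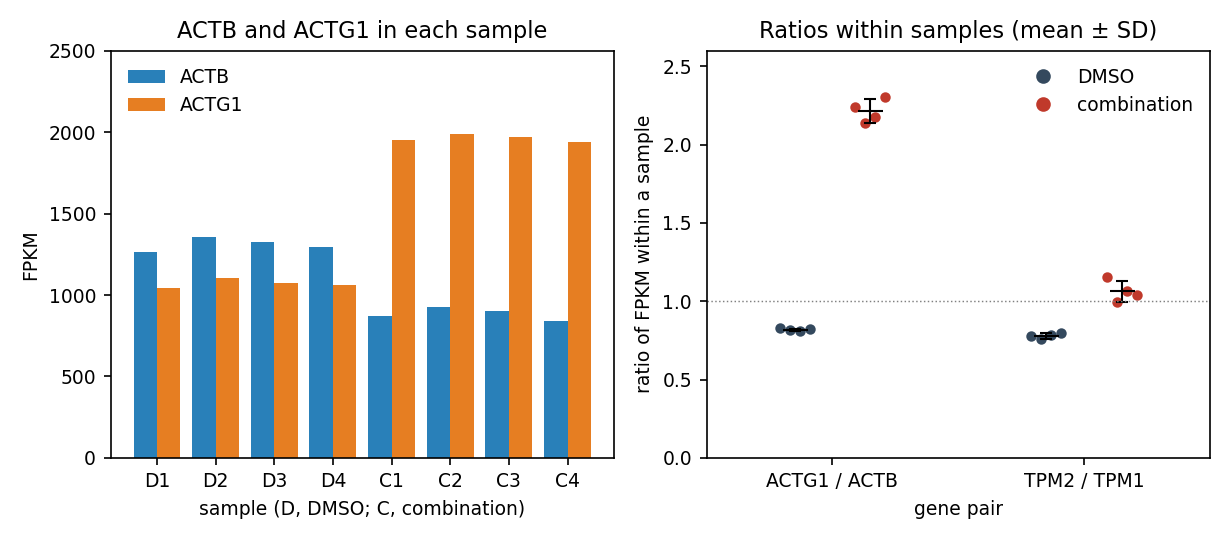
Left, FPKM of ACTB and ACTG1 in each sample (D1 to D4, DMSO; C1 to C4, combination). Right, the ratios ACTG1 to ACTB and TPM2 to TPM1 within each sample, with mean ± SD of 4 samples and a dotted line at 1. ACTG1 exceeds ACTB in all 4 combination samples and in none of the DMSO samples.

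The actin transcripts are alike in their coding parts and have many processed pseudogenes, so the separation of reads was examined. Of the distinct 50-base windows in ACTB transcripts of GENCODE 29, 0.252% also occur in ACTG1, and of those of ACTG1, 0.292% occur in ACTB. Windows shared with transcripts of any other gene made up 4.84% for ACTB and 2.30% for ACTG1. The sources used here do not give the read length, and longer reads would share less. Rows of ACTB pseudogenes (10) together held 12 to 54 reads per library, at most 0.0710% of the reads of ACTB. Rows of ACTG1 pseudogenes (20) held 41 to 139 reads, at most 0.137%. Rows this small could not move the ratio, and with them added to their parents the difference stayed at 1.44 on the log2 scale. The windows were compared by exact match only. Reads that were dropped or placed in the wrong gene could not be seen here.

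Alpha-smooth muscle actin, ACTA2 (ENSG00000107796, chromosome 10, 88935074 to 88991339, minus strand), was present at a trace. It had 1.46, 1.22, 1.04 and 1.07 FPKM after the combination and 2.20, 2.69, 1.35 and 1.55 FPKM in DMSO, from 48 to 66 and from 67 to 128 reads. The groups overlapped, as the highest treated sample lay above the lowest control. Means were 1.19 ± 0.191 and 1.95 ± 0.616 FPKM. The log2 fold change was -0.41 ± 0.143 (SE), with an adjusted p of 0.0260. This call was lost in 4 of 8 fits that left out 1 sample, namely combination replicate 3 (adjusted p = 0.0638) or 4 (0.0609) or DMSO replicate 1 (0.0692) or 2 (0.0611), with log2 fold changes of -0.37, -0.38, -0.36 and -0.29, and with no filter on low values (0.0649). Over all 8 such fits the adjusted p ran from 0.00786 to 0.0692. In addition, 30.1% of its exon length lies under exons on the other strand, of FAS and ACTA2-AS1. The sources used here do not say whether the libraries kept strand. FAS, a death receptor gene, had 206 to 247 reads in DMSO and 64 to 91 after the combination, and its part in the ACTA2 values was not tested.

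The ACTA2 share of the summed FPKM of all 6 actin genes was 0.0515%, 0.0418%, 0.0360% and 0.0385% after the combination. In DMSO it was 0.0954%, 0.110%, 0.0562% and 0.0660%. The shares did not overlap, with means of 0.0420% ± 0.00681 and 0.0818% ± 0.0249 (exact permutation test, two-sided p = 0.0286, adjusted 0.0286 over 3). The sum is almost wholly ACTB plus ACTG1, which was higher after the combination, so part of the fall in the share comes from its denominator, and the ACTA2 levels themselves overlapped. The remaining actin genes of muscle were nearly silent. ACTA1, the skeletal muscle isoform, had 1 to 9 reads per library, ACTG2, the enteric smooth muscle isoform, 1 to 6, and ACTC1, the cardiac isoform, 4 to 12 after the combination and 0 to 1 in DMSO. A gene with 3 reads would stand at 0.115 to 0.132 FPKM for ACTA1 and at 0.0375 to 0.0428 FPKM for ACTC1, so nothing firm can be said of levels this low. Such floors cover counting error only.

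TPM1 and TPM2 encode tropomyosins, coiled-coil proteins that lie along actin filaments and govern the access of myosin and other proteins. TPM1 (ENSG00000140416, chromosome 15, 63042632 to 63071915, plus strand) had 13.6, 14.1, 13.4 and 12.7 FPKM after the combination and 36.2, 40.8, 36.6 and 37.0 FPKM in DMSO. All treated samples were far below all controls. The means, 13.5 ± 0.567 and 37.7 ± 2.12 FPKM, differed 2.80-fold. On the log2 scale this was -1.42 ± 0.0459 (SE), with an adjusted p of 3.67e-09, the largest decrease among the 9 genes tested. Antisense exons cover 21.4% of its exon length, mostly those of TPM1-AS, which had 7 to 11 reads after the combination and 17 to 32 in DMSO. TPM1 itself had 2629 to 8389 reads, and the part of antisense transcripts in its values was not tested.

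TPM2 (ENSG00000198467, chromosome 9, 35681992 to 35690121, minus strand) went the same way, with 15.7, 14.0, 14.3 and 13.3 FPKM after the combination and 28.2, 30.9, 28.7 and 29.6 FPKM in DMSO. Again the groups were clearly apart. Its log2 fold change was -0.99 ± 0.0513 (SE, adjusted p = 9.57e-08), on means of 14.3 ± 1.03 and 29.3 ± 1.18 FPKM. TPM2 fell less than TPM1. The ratio of TPM2 to TPM1 was 1.15, 0.993, 1.06 and 1.04 after the combination and 0.778, 0.756, 0.784 and 0.799 in DMSO, 1.36 times as high on average (exact permutation test, two-sided p = 0.0286, adjusted 0.0286 over 3). The length used for TPM1, 12876 bases, is that of the merged exons of 34 annotated transcripts against 3248 bases for TPM2, so the level of TPM1 per length depends on which of them the cells make.

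The tropomyosins TPM3 and TPM4, which non-muscle cells use for their general filaments, fell less. TPM3 stood at 56.7 ± 0.982 against 67.6 ± 0.671 FPKM (log2 fold change -0.25, adjusted p = 1.25e-05) and TPM4 at 25.9 ± 0.439 against 29.1 ± 0.792 FPKM (-0.16, adjusted p = 0.000646, a call lost with upper-quartile factors). Summed over TPM1 to TPM4, the level was 110.4 ± 0.984 FPKM after the combination and 164 ± 3.63 FPKM in DMSO. TPM1 and TPM2 supplied 25.2% ± 1.17 of it, against 40.9% ± 1.19 in DMSO.

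Calponins bind actin and tropomyosin. CNN1, the calponin of differentiated smooth muscle (ENSG00000130176, chromosome 19, 11538717 to 11550323, plus strand), had 4.57, 4.5, 4.14 and 5.10 FPKM after the combination. In DMSO it had 0.299, 0.130, 0.104 and 0.154 FPKM, which came from 15, 6, 5 and 7 reads. The gene was thus close to silent in every control and present in every treated sample, from 186 to 236 reads. Means were 4.58 ± 0.399 and 0.172 ± 0.0872 FPKM, a ratio of 26.7. The fitted log2 fold change of 2.25 ± 0.0799 (SE, adjusted p = 6.77e-09) understates this because 1 is added to each value, and it was 4.15 with 0.1 added, 0.89 with 5 added and 4.71 with voom on reads. Even so, CNN1 supplied 3.28% ± 0.368 of the summed calponin level after the combination. The gene passed the filter of 1 FPKM only through the treated samples, so its p-value is not separate support for the rise. With no filter its adjusted p was 8.72e-08 in limma.

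CNN2 (ENSG00000064666, chromosome 19, 1026581 to 1039068, plus strand), the calponin of many non-muscle cells, had 30, 30.2, 29.5 and 26.4 FPKM after the combination and 20.2, 20.1, 19.8 and 19.4 FPKM in DMSO. All treated samples were higher than all controls. Its log2 fold change was 0.52 ± 0.0442 (SE, adjusted p = 3.14e-06). CNN3, the most abundant calponin here, stood at 106 ± 2.70 against 91.6 ± 4.13 FPKM (0.21, adjusted p = 0.000609). All 3 calponin genes thus rose, by unequal amounts, in contrast to the 4 tropomyosin genes.

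Transgelin, or SM22, is an actin-binding protein of smooth muscle related to the calponins. TAGLN (ENSG00000149591, chromosome 11, 117199321 to 117204782, plus strand) had 1.12, 1.25, 1.36 and 1.02 FPKM after the combination and 1.53, 2.13, 1.47 and 1.57 FPKM in DMSO. The groups did not overlap but lay close together. On means of 1.19 ± 0.149 and 1.67 ± 0.306 FPKM the log2 fold change was -0.28 ± 0.0941 (SE, adjusted p = 0.0202). Without combination replicate 4 the adjusted p was 0.0539 (range over the 8 fits that left out 1 sample, 0.0198 to 0.0539), with a log2 fold change of -0.25. Exons of PCSK7, a protease gene on the other strand, cover 11.4% of its exon length, and PCSK7 had 567 to 683 reads in DMSO and 366 to 429 after the combination, whose part in the TAGLN values was not tested. TAGLN2, the widely expressed transgelin, was far more abundant and higher after the combination, at 364 ± 10.1 against 279 ± 1.21 FPKM (0.38, adjusted p = 2.41e-06).

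MYL9 (ENSG00000101335, chromosome 20, 36541484 to 36551447, plus strand) encodes a regulatory light chain of smooth muscle and non-muscle myosin II. It had 0 reads in all 4 combination samples and 1, 0, 2 and 0 reads in DMSO. It was not tested, and 3 reads would correspond to 0.0612 to 0.0698 FPKM, so a level below that was not detectable at this depth. Its paralogues MYL12A and MYL12B, which encode the regulatory light chains of non-muscle myosin, were abundant and rose. MYL12A went from 36.6 ± 1.30 to 68.6 ± 2.37 FPKM (log2 fold change 0.89, adjusted p = 1.86e-08) and MYL12B from 97.1 ± 4.47 to 144 ± 8.25 FPKM (0.56, adjusted p = 4.09e-06).

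**Figure D3:**
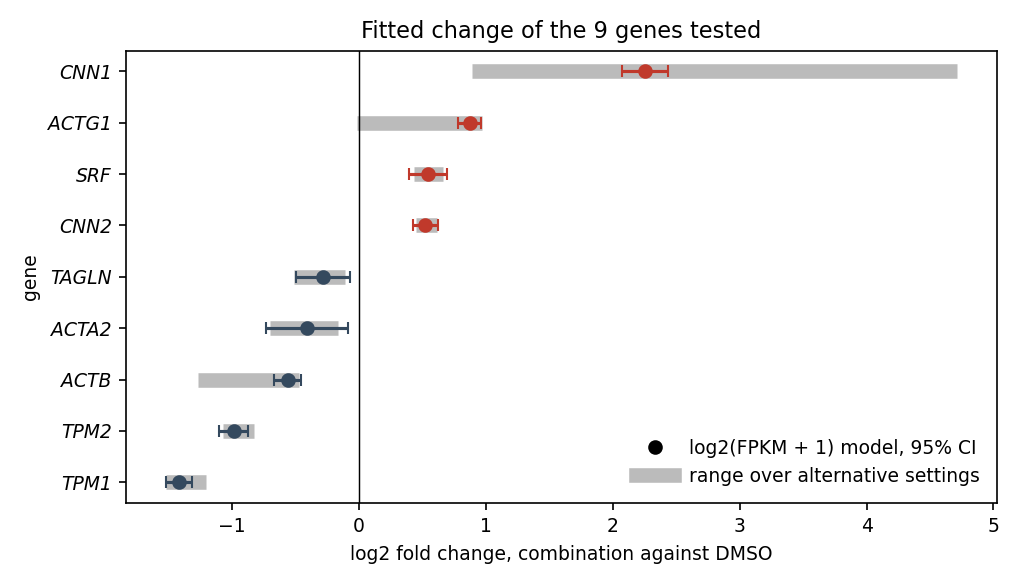
Log2 fold changes of the 9 genes tested, on the log2(FPKM + 1) scale, with 95% intervals (red, higher; blue, lower). Grey bars give the range over 20 alternative settings, which is wide for CNN1 because of the value added before taking logs and reaches -0.019 for ACTG1 with quantile normalization.

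Ordered by level, the DMSO samples had ACTB above ACTG1, then TPM1, TPM2, CNN2, SRF, ACTA2 and TAGLN, then CNN1 and MYL9. ACTA2 and TAGLN overlapped there and could not be ranked. After the combination the order was ACTG1, ACTB, CNN2, SRF, TPM2, TPM1, CNN1, and then TAGLN and ACTA2, with MYL9 last. TPM2 (13.3 to 15.7 FPKM) and TPM1 (12.7 to 14.1 FPKM) overlapped in this group, as did TAGLN and ACTA2.

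Of 8 cofactor genes of SRF 5 were tested, with 1 higher and 3 lower (36.9% and 41.0% of all genes tested) and a median of -0.26. MRTFA stood at 9.71 ± 0.502 against 9.28 ± 0.898 FPKM (adjusted p = 0.401, though higher with quantile normalization), and MRTFB was lower at 2.31 ± 0.151 against 3.21 ± 0.184 FPKM (log2 fold change -0.35, adjusted p = 0.000267). Myocardin (MYOCD), the cofactor of smooth and cardiac muscle, had 0 to 4 reads per library and ABRA, an activator of MRTFs in muscle, 0 to 2. SCAI, a corepressor of MRTFA, had 149 to 198 reads and was not tested either. Among the ternary complex factors, ELK3 was higher (0.34, adjusted p = 2.77e-06), ELK1 lower (-0.46, adjusted p = 1.03e-06) and ELK4 lower (-0.26, adjusted p = 0.000633).

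Immediate early targets of SRF went both ways. Of 8 tested, 2 were higher and 3 lower, against 36.9% and 41.0% of all genes tested, and their median was -0.032. FOS stood at 272 ± 19.2 against 297 ± 37.6 FPKM (adjusted p = 0.233, lower with quantile normalization) and EGR1 at 387 ± 25.5 against 376 ± 67.0 FPKM (adjusted p = 0.666), both abundant in either group. EGR3 fell to 2.42 ± 0.237 from 15.4 ± 1.37 FPKM (-2.26, adjusted p = 2.96e-09) and NR4A1, an orphan nuclear receptor gene, to 7.01 ± 0.582 from 23.2 ± 3.41 FPKM (-1.59, adjusted p = 2.84e-07). EGR2 was lower too (-0.42, adjusted p = 0.00142). IER2 rose to 70.4 ± 6.90 from 36.0 ± 4.51 FPKM (0.95, adjusted p = 9.11e-06), and JUNB, an AP-1 subunit, was called higher (0.45, adjusted p = 0.00967) although its groups overlapped.

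Of 16 cytoskeletal and matrix-linked targets of MRTF and SRF, which include CNN3, TAGLN2 and TPM4, all were tested, 11 were higher and 5 lower, with a median of 0.31. Over all genes tested 36.9% were higher and 41.0% lower. The list's counts were 11 and 3 with upper-quartile factors, 10 and 5 with library totals and 11 and 4 with nuclear reads. The 5 lower ones were CALD1, TGFB1I1, ZYX, TPM4 and ACTN1, of which ACTN1 lost its call with upper-quartile factors and with nuclear reads. CYR61, a secreted matricellular protein also controlled by YAP, rose from 95.9 ± 10.6 to 719 ± 28.3 FPKM (2.90, adjusted p = 8.02e-10), and CTGF, its relative, from 106 ± 11.6 to 245 ± 11.9 FPKM (1.21, adjusted p = 2.78e-07). FLNA, the filament cross-linker filamin A, rose to 320.1 ± 10.8 from 204 ± 10.3 FPKM (0.65, adjusted p = 6.02e-07). CALD1, which encodes caldesmon, an actin and tropomyosin binding regulator of contraction, fell to 14.1 ± 0.0557 from 37.5 ± 0.320 FPKM (-1.35, adjusted p = 1.08e-10). TGFB1I1, the focal adhesion protein Hic-5, fell to 1.36 ± 0.137 from 7.31 ± 0.187 FPKM (-1.82, adjusted p = 1.52e-09). The list therefore held large changes in both directions, as the 10 genes did.

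Of 26 genes that build and dismantle filaments, all tested, 13 were lower and 8 higher (median -0.15), against 41.0% and 36.9% of all genes. With library totals 17 were lower and 8 higher, and with upper-quartile factors 12 and 9 (median -0.056). The monomer-binding thymosin TMSB4X rose to 388 ± 18.1 from 125 ± 3.66 FPKM (1.62, adjusted p = 7.02e-10), and LIMK1, a kinase that inactivates cofilin, to 20.3 ± 0.297 from 11.5 ± 0.643 FPKM (0.77, adjusted p = 9.83e-08). CFL2, the muscle cofilin, rose too (0.79, adjusted p = 8.62e-07). SSH1, a phosphatase that reactivates cofilin, fell to 8.52 ± 0.178 from 15.0 ± 0.362 FPKM (-0.75, adjusted p = 2.02e-08), the severing protein gelsolin (GSN) to 31.3 ± 1.04 from 46.2 ± 1.26 FPKM (-0.55, adjusted p = 3.05e-07), and the formin DIAPH3 to 0.412 ± 0.0696 from 5.33 ± 0.141 FPKM (-2.17, adjusted p = 8.92e-10). DIAPH3 passed the filter only through DMSO. Relatives of these genes did not all move alike. LIMK2 fell to 3.24 ± 0.325 from 5.27 ± 0.268 FPKM (-0.57, adjusted p = 2.19e-05), unlike LIMK1. The more abundant formin DIAPH1 rose to 43.8 ± 1.36 from 36.0 ± 0.685 FPKM (0.27, adjusted p = 2.56e-05), while DIAPH2 was lower (-0.52, adjusted p = 2.48e-05).

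Genes of the myosin motor went both ways. MYLK, the kinase of the myosin light chain, rose to 4.27 ± 0.234 from 1.39 ± 0.0761 FPKM (1.14, adjusted p = 4.02e-08). Of the heavy chains of non-muscle myosin II, MYH9 was by far the most abundant and rose to 228 ± 5.17 from 163 ± 6.09 FPKM (0.49, adjusted p = 1.06e-06). MYH14 rose to 8.76 ± 0.0989 from 4.49 ± 0.378 FPKM (0.83, adjusted p = 3.19e-07) and MYH10 fell to 10.7 ± 0.681 from 28.5 ± 1.13 FPKM (-1.33, adjusted p = 7.07e-09).

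**Figure D4:**
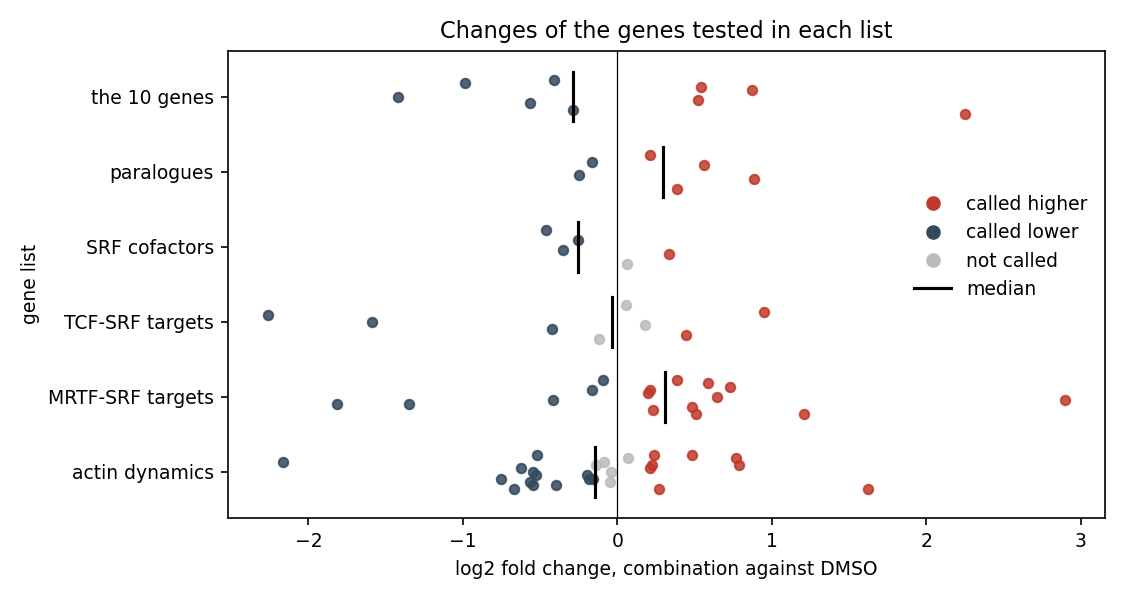
Log2 fold changes of the tested genes in the lists of members, paralogues, SRF cofactors, SRF targets and actin dynamics, on the log2(FPKM + 1) scale. Each point is a gene (red, called higher; blue, called lower; grey, not called) and black lines are medians, which in the lists drawn lie between -0.28 for the 10 genes and 0.31 for MRTF-SRF targets.

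Most other markers of muscle stayed near absent. Of 8 smooth muscle markers, 6 stayed under 1 FPKM in every sample, and MYH11, the myosin heavy chain that defines the lineage, had 7 to 19 reads after the combination and 15 to 31 in DMSO. SMTN, or smoothelin, which many cell types express, was the single one tested and fell to 4.87 ± 0.243 from 16 ± 0.591 FPKM (-1.54, adjusted p = 1.19e-09). Their summed level was 6.05 to 6.98 FPKM after the combination and 16.1 to 17.2 FPKM in DMSO. DES, another of the 8 and the gene of the intermediate filament desmin, was chosen for mention after its values were seen, with 26 to 44 reads after the combination and 0 to 2 in DMSO. All 7 markers of striated muscle, 5 of endothelium and 5 of immune cells were under 1 FPKM in every sample, and of 10 fibroblast markers 5 were. Some of these low markers were nevertheless higher after the combination without overlap. The share of all genes at such low levels that did so was not taken. Every combination library also had reads on more genes than every DMSO library. PECAM1, an endothelial adhesion molecule, had 45 to 70 reads against 1 to 6 in DMSO, VWF, von Willebrand factor, 78 to 92 against 20 to 37, and TTN, the titin gene, 528 to 777 against 312 to 421. Others of the same lists overlapped between the groups. CLDN5 of the endothelial list had 0 to 12 reads against 6 to 12 in DMSO, with a lower mean (0.0663 against 0.160 FPKM). KDR of that list had 3 reads against 0 to 4, and ACTA1 of the striated list 1 to 2 against 1 to 9. The summed endothelial level was 0.949 to 1.33 FPKM after the combination and 0.294 to 0.463 FPKM in DMSO, that of immune markers 0.787 to 1.47 and 0.277 to 0.664 FPKM, and that of striated muscle 0.566 to 0.914 and 0.414 to 0.694 FPKM. Of the 4 fibroblast markers tested, 3 were higher and 1 lower (36.9% and 41.0% of all genes tested), with LUM at 42.9 ± 1.54 against 10.2 ± 0.923 FPKM, COL1A1 at 3.47 ± 0.225 against 0.735 ± 0.0443 FPKM, PDGFRB at 2.05 ± 0.0996 against 1.21 ± 0.111 FPKM and FAP, the lower one, at 0.575 ± 0.0949 against 1.52 ± 0.128 FPKM, while COL1A2 had 3 to 12 reads. COL1A1 passed the filter only through the treated samples and FAP only through DMSO. PDGFRA, which was not tested, had 26 to 49 reads after the combination and 148 to 193 in DMSO. The summed fibroblast level was 47.6 to 51.3 FPKM after the combination and 13.9 to 16.4 FPKM in DMSO, most of it LUM. The part of these markers in the CNN1 values was not tested.

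For likeness, the distance between centred log2(FPKM + 1) profiles over the 8 samples was taken for every tested gene outside the 10. Nearest to ACTB was SP3 (distance 0.0572, 7.46 ± 0.350 against 11.5 ± 0.281 FPKM), followed by SET and CCNT2. Nearest to ACTG1 were LAMP2 (distance 0.0703, 96.9 ± 2.98 against 51.5 ± 1.21 FPKM), CRIM1 and STK17A. The profile nearest to TPM1 was that of VIM, the intermediate filament gene vimentin (distance 0.122, 116 ± 5.65 against 315 ± 18.1 FPKM). Nearest to SRF was C16orf91 (distance 0.0853), and to CNN1 it was CD163L1 (distance 0.201, 12.1 ± 1.01 against 1.76 ± 0.128 FPKM). These distances describe 8 samples in 2 groups.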

How the data were processed

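The deposited table gives FPKM values of the authors for 58735 genes in 8 samples. Per the submitters' processing notes the tools include Bowtie 0.12.2. The builds named there differ from the coordinates in the table, which equal GENCODE 29 on GRCh38 for every gene, as do its merged exon lengths. The extraction text among the labels speaks of brain tissue, whereas all other labels give LN229. FPKM times length came out in whole multiples of 1 read for every value (tolerance 0.02), which gave reads per gene. The divisor behind FPKM was 0.954 to 1.003 of the library total after the combination and 1.026 to 1.041 in DMSO.

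Genes averaging 1 FPKM or more across the 8 samples were tested in limma 3.58.1 (R 4.3.3) on log2(FPKM + 1), with an empirical Bayes trend and Benjamini-Hochberg adjustment over 13296 genes (threshold 0.05). A fold change on this scale understates that of low genes. Ratios and shares were set against exact permutation tests (scipy 1.17.1). The fit was also run on simulated reads in which few genes changed. Since most genes are called in these data, that run cannot vouch for the calls. The alternatives were 6 scalings, pseudocounts of 0.1 and 5, no filter, a filter at 5 FPKM, a replicate block, voom on reads and each sample left out. Scaling to nuclear reads, adding ACTBL2 to the actins and the ACTB share were added after seeing the data. The members and gene lists were chosen with earlier results of these data known. The rule for naming took all members, up to 3 called genes of the smallest p in each direction from each other list, and the 3 genes nearest to each member in profile, of which a part is printed. Other genes named, such as MYH9, FOS, PECAM1, CNN3, MRTFA and the remaining cofactors, were named after their values were seen. The summary of 1 list and some of its genes are not reported here.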

Additional observations from a re-analysis of the deposited data

Results flagged for a closer look

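In 1 of 34 groups of 4 samples examined, 1 sample stood apart. For TAGLN in DMSO, replicate 2 (2.13 FPKM) lay above the other three (1.47 to 1.57 FPKM), and its gap to the nearest was 0.848 of the range, over Dixon's 95% critical value for 4 samples. Chance alone flags about 1 in 20 such groups. Without that sample the log2 fold change of TAGLN was -0.21 (adjusted p = 0.0461 in limma), against -0.28 with it.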

How the results depend on the processing

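Of 177 values of single genes over 20 settings, 170 kept direction and call. ACTG1 turned to -0.019 with quantile normalization, and the other exceptions were ACTA2 (5) and TAGLN (1), given with their genes. Over all genes, 7747 were higher and 6386 lower with no filter, and 2821 higher and 3277 lower with a filter at 5 FPKM, against 4902 and 5445. The balance turned with upper-quartile factors (5533 higher and 4878 lower), quantile normalization (5496 and 4938) and nuclear reads (5315 and 5080), where the median of all genes was 0.050, 0.040 and 0.021 against -0.026. The filter at 5 FPKM left 3 lower among the 10 genes, since ACTA2 and TAGLN were not tested, and 3 higher, since CNN1 was not. Leaving out 1 sample gave 3 to 5 lower members (3 without combination replicate 4), a log2 difference in ACTG1 to ACTB of 1.42 to 1.45, in TPM2 to TPM1 of 0.41 to 0.48, and in the ACTA2 share of -0.0483 to -0.0306 percentage points, where 3 against 4 cannot go below an exact p of 0.0571.

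Replicate numbers did not pair the samples (correlations of deviations 0.00203, 0.0503, -0.0234 and 0.0672). With a replicate block 4839 genes were higher and 5404 lower and no call of the 10 genes changed, while the ratios and share kept 1.44, 0.45 and -0.0398 with an exact p of 0.125, the smallest 4 pairs allow. At this depth MYL9 and the muscle actins could not be tested.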

Other observations

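ACTBL2, an actin-like gene outside the 10 and named after its values were seen (chromosome 5, 57480016 to 57482809, minus strand), had 9.28, 11.1, 11.3 and 11 FPKM after the combination and 0.247, 0.0897, 0.15 and 0.181 FPKM in DMSO. It was thus near silent in every control, with 4 to 12 reads, and present in every treated sample, with 395 to 528 reads. The log2 fold change was 3.32 ± 0.0722 (SE), with an adjusted p of 2.92e-10 in limma. Like CNN1, ACTBL2 passed the filter only through the treated samples, so this p-value is not separate support. Added to the summed actins, it left the ACTA2 share at 0.0418% against 0.0818%. TAGLN3, the neuronal transgelin, likewise named after its values were seen, had 17 to 30 reads after the combination and 0 to 2 in DMSO and was not tested.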
